A study of Mus musculus with 6 samples.

Results

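Long-chain and very long-chain fatty acids are made in the endoplasmic reticulum by a cycle of enzymes that adds a pair of carbons at each turn. An ELOVL enzyme condenses an acyl-CoA with malonyl-CoA, HSD17B12 reduces the ketone that results, a HACD dehydratase removes water, and TECR reduces the remaining double bond. The ELOVL enzymes differ in the chains they accept and set which fatty acids a tissue can make, while the other steps are shared by all chains. Members of the SREBP family of transcription factors are known to switch on genes of fatty acid and cholesterol synthesis. In the jejunum, which lies between duodenum and ileum, the fatty acids made or absorbed enter membranes, sphingolipids and chylomicrons.

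The genes described here are the mouse fatty acid elongases Elovl1 to Elovl7 with Hsd17b12 and Tecr, 9 genes in all among 19938 tested. Each was found by its symbol in the annotation of the array. All 9 had a row that names that symbol alone, and none had more than 1 such row. RNA of jejunal mucosa, collected by scraping, was hybridised to 3 arrays of ISR2 mice, a transgenic C57/BL line with overactive SREBP2 in the intestine, and to 3 arrays of their wild type littermates of the same background strain. Mice of both groups were 8 to 10 weeks old and ate regular chow. Neither the construct nor the promoter of the transgene is named in the sources used here. Values are log2 expression values made by RMA, so a difference of 1 is a doubling, and a gene is said to have risen or fallen where its adjusted p in limma was below 0.05. Whether each array stands for 1 mouse is not stated, so a p-value here reflects the spread between arrays, which may be technical, and 3 arrays per group limit the precision. In scraped tissue, fewer cells of a type and less RNA per cell cannot be told apart.

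Of the 9 genes 5 rose in ISR2 mucosa, 0 fell and 4 did not pass; 5 of the 9 also had an unadjusted p under 0.05. Over all genes 1.79% rose, 1.23% fell and 13.1% had an unadjusted p under 0.05. The genes that rose were Elovl5, Hsd17b12, Tecr, Elovl6 and Elovl1, and in each of them all ISR2 arrays lay above all wild type arrays, which held for 5.87% of all genes. The median log2 difference (ISR2 minus wild type) was 0.61 over the 9 genes and -0.06 over all genes. The rises ran from 0.61 for Elovl1 to 2.99 for Elovl5 on the log2 scale.

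The DNA in front of these genes is shown because 3 of them, Elovl5, Hsd17b12 and Tecr, rose by more than the rest. RefSeq promoter windows of 300 bases on GRCm38.p6, 250 before the transcription start and 50 from it, were found for 8 of the 9 genes, with 2 windows for Elovl1 and for Elovl2. Each window was searched on both strands for CCAAT, the letters bound by NF-Y, a factor known to work beside SREBP proteins, and for CACNCCAC, the core of the sterol regulatory element that SREBP proteins bind; this core was chosen after the windows had been seen. Capitals mark matches, which read ATTGG where CCAAT lies on the other strand.
Elovl5, chr9:77917115-77917414, plus strand: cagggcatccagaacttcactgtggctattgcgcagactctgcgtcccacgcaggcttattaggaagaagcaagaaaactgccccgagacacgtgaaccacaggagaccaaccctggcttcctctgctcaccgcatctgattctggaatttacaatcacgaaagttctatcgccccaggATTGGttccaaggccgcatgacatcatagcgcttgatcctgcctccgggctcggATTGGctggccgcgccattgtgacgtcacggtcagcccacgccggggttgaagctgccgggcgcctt
Hsd17b12, chr2:94157860-94158159, minus strand: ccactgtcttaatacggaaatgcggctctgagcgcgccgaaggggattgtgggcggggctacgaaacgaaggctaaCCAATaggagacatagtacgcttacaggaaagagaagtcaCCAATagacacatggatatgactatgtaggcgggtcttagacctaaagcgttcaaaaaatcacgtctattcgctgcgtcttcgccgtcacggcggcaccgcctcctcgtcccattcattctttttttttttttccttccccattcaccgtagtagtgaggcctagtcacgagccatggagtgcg
Tecr, chr8:83594442-83594741, minus strand: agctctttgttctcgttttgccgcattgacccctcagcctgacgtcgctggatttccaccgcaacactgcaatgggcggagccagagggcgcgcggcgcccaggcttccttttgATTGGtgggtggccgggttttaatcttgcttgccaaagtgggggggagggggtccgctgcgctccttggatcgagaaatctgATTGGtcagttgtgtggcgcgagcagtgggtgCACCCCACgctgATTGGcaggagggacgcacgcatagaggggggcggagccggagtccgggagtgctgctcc
Elovl6, chr3:129532136-129532435, plus strand: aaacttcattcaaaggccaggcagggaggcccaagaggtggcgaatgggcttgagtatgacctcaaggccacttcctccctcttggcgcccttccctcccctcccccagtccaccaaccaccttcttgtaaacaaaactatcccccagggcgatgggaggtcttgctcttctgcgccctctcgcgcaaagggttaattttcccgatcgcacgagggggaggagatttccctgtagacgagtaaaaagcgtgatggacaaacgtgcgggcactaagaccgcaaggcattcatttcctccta
Elovl7, chr13:108214154-108214453, plus strand: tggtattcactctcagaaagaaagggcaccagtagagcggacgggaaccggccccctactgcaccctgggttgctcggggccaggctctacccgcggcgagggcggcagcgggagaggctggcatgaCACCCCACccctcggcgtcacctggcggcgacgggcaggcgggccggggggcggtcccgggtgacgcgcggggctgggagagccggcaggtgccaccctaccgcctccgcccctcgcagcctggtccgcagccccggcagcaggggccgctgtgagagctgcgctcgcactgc

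The Tecr window held 3 CCAAT matches and 1 CACNCCAC match, which lay 22 to 15 bases before the start and did not overlap the nearest CCAAT match. The Elovl5 and Hsd17b12 windows held 2 CCAAT matches each and no CACNCCAC. At least 2 CCAAT matches were present in 11.7% of all 32851 windows of this length and at least 3 in 3.37%. The Elovl6 window held neither motif, and the Elovl7 window held 1 CACNCCAC and no CCAAT. CACNCCAC was present in 6.24% of all windows. Among the other windows, the first of Elovl1 and that of Elovl4 held 1 CCAAT match each, as at least 1 was present in 37.4% of all windows, and the second of Elovl1 and both of Elovl2 held none. The longer form TCACNCCAC was in none of the 10 windows of these genes and in 1.24% of all windows. The letters CACGTG, an E-box, stood once in the windows of Elovl5 and Elovl4 and in 7.15% of all windows. GGGCGG, a GC box, was also searched on both strands and was present in 35.7% of all windows. At least 2 matches were present in 19.5% and at least 3 in 10.7% of all windows. GGGCGG had 0 matches in the Elovl5 and Elovl6 windows, 1 in that of Hsd17b12 and 2 in that of Tecr. The windows of Elovl7 and Elovl4 held 3 and 2, those of Elovl1 5 and 2, and those of Elovl2 0 and 5. A match is a description of the letters and not a measured site.

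Elovl5 elongates polyunsaturated fatty acids on the way to arachidonic and related acids, working between the desaturases encoded by Fads2 and Fads1. It stood at 10.53, 10.69 and 10.66 in ISR2 replicates 1, 2 and 3, against 7.30, 7.63 and 7.98 in wild type replicates 1, 2 and 3 (log2 RMA values). The lowest ISR2 array was 2.55 above the highest wild type array, and the ISR2 arrays lay closer together than the wild type arrays. The mean was 10.63 ± 0.09 in ISR2 and 7.64 ± 0.34 in wild type mucosa (SD, n = 3 each), a rise of 2.99 ± 0.18 on the log2 scale (SE) or 7.97-fold (95% interval 6.05 to 10.5), with an adjusted p of 1.8e-05 in limma. This was the largest rise among the 9 genes and the 32nd largest log2 difference among the 19938 genes. Without each array in turn the rise was between 2.82 and 3.17, with adjusted p up to 0.00038.

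**Figure D1:**
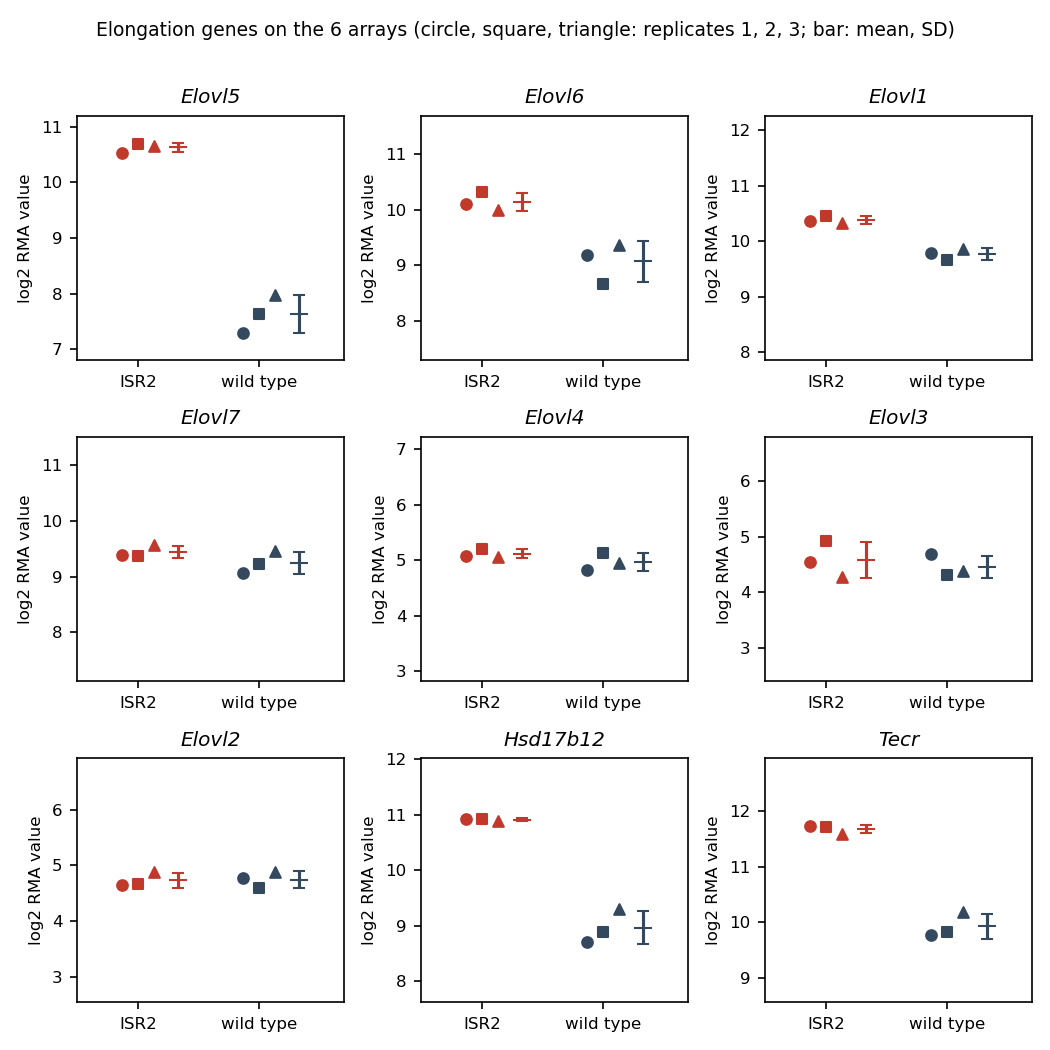
Log2 RMA values of the 9 elongation genes on each array, ISR2 at the left and wild type at the right of each panel; points are replicates 1 (circle), 2 (square) and 3 (triangle), the bar is the mean with its SD, and every panel spans the same number of log2 units. Elovl5, Hsd17b12 and Tecr are far apart between the groups, Elovl6 and Elovl1 are apart by less, and the groups overlap for Elovl7, Elovl4, Elovl3 and Elovl2.

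Elovl6 extends palmitate, the product of fatty acid synthase, to stearate, and is a textbook target of SREBP1c in mouse liver. It stood at 10.11, 10.32 and 10.00 in ISR2 replicates 1, 2 and 3, against 9.19, 8.66 and 9.36 in the wild type replicates (log2 RMA values). The groups did not overlap, and wild type replicate 2 was the lowest array. The rise was 1.07 ± 0.19 on the log2 scale (SE), or 2.10-fold (95% interval 1.56 to 2.84; adjusted p = 0.0172 in limma). Without ISR2 replicate 1 or wild type replicate 1 the call was lost, with adjusted p of 0.0824 and 0.0567, while the difference itself was 1.09 and 1.13. Without wild type replicate 2 the difference was 0.87, the smallest of the fits with 1 array left out, and it passed (adjusted p = 0.0359).

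Elovl1 lengthens saturated and monounsaturated acyl chains to the very long chains used in sphingolipids. Its values were 10.37, 10.45 and 10.32 on the ISR2 arrays, against 9.78, 9.66 and 9.87 on the wild type arrays (log2 RMA values). The gap between the lowest ISR2 and the highest wild type array was 0.46, which exceeded the range within either group. Elovl1 rose by 0.61 ± 0.12 on the log2 scale (SE), or 1.53-fold (95% interval 1.26 to 1.85; adjusted p = 0.0293 in limma). The call was lost in all 6 fits that left out 1 array, with adjusted p between 0.0594 and 0.134 and differences between 0.56 and 0.66.

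The other 4 elongases did not pass. Elovl7, known to act on saturated long chains, was at 9.39, 9.37 and 9.56 in ISR2 mucosa, against 9.06, 9.22 and 9.46 in wild type mucosa (log2 RMA values). The highest wild type array exceeded the lowest ISR2 arrays, and the difference was 0.20 (95% interval -0.13 to 0.52; adjusted p = 0.647 in limma).

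Elovl4, which makes the ultra long chains of retina, skin and brain, was at 5.08, 5.21 and 5.06 in ISR2 mucosa, against 4.83, 5.14 and 4.95 in wild type mucosa, with overlap and a difference of 0.15 (95% interval -0.15 to 0.44; adjusted p = 0.72 in limma). Elovl3, known from skin glands, brown fat and liver, was at 4.55, 4.92 and 4.27 in ISR2 mucosa, against 4.68, 4.31 and 4.38 in wild type mucosa. ISR2 replicates 2 and 3 were its highest and lowest arrays. Its difference was 0.12 (95% interval -0.30 to 0.54; adjusted p = 0.854 in limma), and it was -0.05 without ISR2 replicate 2. Elovl2, which takes the polyunsaturated products of ELOVL5 further towards docosahexaenoic acid, was at 4.65, 4.66 and 4.88 in ISR2 mucosa, against 4.77, 4.59 and 4.88 in wild type mucosa. Its groups overlapped, with a difference of -0.01 (95% interval -0.32 to 0.29; adjusted p = 0.982 in limma), whose sign turned in 5 of the 15 other fits that gave it a value.

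The means of Elovl2, Elovl3 and Elovl4 over the 6 arrays lay below the lower quartile of all gene means, 5.20 on the log2 scale. The table holds no detection call, so these 3 genes are not shown to be above background in either group, and background signal can compress a change of a dim gene. Elovl7 was not among them.

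Hsd17b12 encodes the ketoacyl-CoA reductase of the first reduction and is the enzyme that all the elongases share at that step. It stood at 10.92, 10.91 and 10.88 in ISR2 replicates 1, 2 and 3, against 8.71, 8.88 and 9.29 in the wild type replicates (log2 RMA values). The ISR2 arrays lay close together, with an SD of 0.03, and wild type replicate 3 was the highest wild type array. The rise was 1.94 ± 0.16 on the log2 scale (SE), or 3.85-fold (95% interval 2.99 to 4.95; adjusted p = 0.00019 in limma).

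Tecr encodes the enoyl-CoA reductase that closes the cycle. It stood at 11.74, 11.71 and 11.59 in ISR2 replicates 1, 2 and 3, against 9.78, 9.82 and 10.19 in the wild type replicates (log2 RMA values). The groups were 1.40 apart at their nearest arrays. The rise was 1.75 ± 0.15 on the log2 scale (SE), or 3.36-fold (95% interval 2.68 to 4.22; adjusted p = 0.000194 in limma). Both shared reductases passed in each fit with 1 array left out, Hsd17b12 with differences of 1.82 to 2.11 and Tecr with 1.67 to 1.88 (adjusted p up to 0.00299 and 0.0031).

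The dehydratases, which stand between these reductases in the cycle, did not pass: of 4 genes measured 0 rose and 0 fell, and 1 had an unadjusted p under 0.05. Hacd1, the form known from muscle, differed by 0.13 (95% interval -0.24 to 0.50; adjusted p = 0.82 in limma), and Hacd3 by 0.05 (95% interval -0.30 to 0.41; adjusted p = 0.934). Hacd2, a widely expressed form, was at 9.69, 9.81 and 9.76 in ISR2 mucosa, against 10.03, 9.82 and 10.18 in wild type mucosa (log2 RMA values). All its ISR2 arrays were below the wild type arrays, as were those of 13.9% of all genes, and its difference was -0.26 (95% interval -0.56 to 0.05; adjusted p = 0.48 in limma). The second row of Hacd2 differed by -0.13 and that of Hacd1 by -0.07. Hacd4 differed by -0.35 (95% interval -0.64 to -0.06, adjusted p = 0.261 in limma). Its level was near the lower quartile of gene means (4.93 in ISR2 and 5.29 in wild type mucosa). The ISR2 arrays of Hacd4, at 4.92, 5.05 and 4.83, were also all below its wild type arrays, at 5.16, 5.39 and 5.30.

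**Figure D2:**
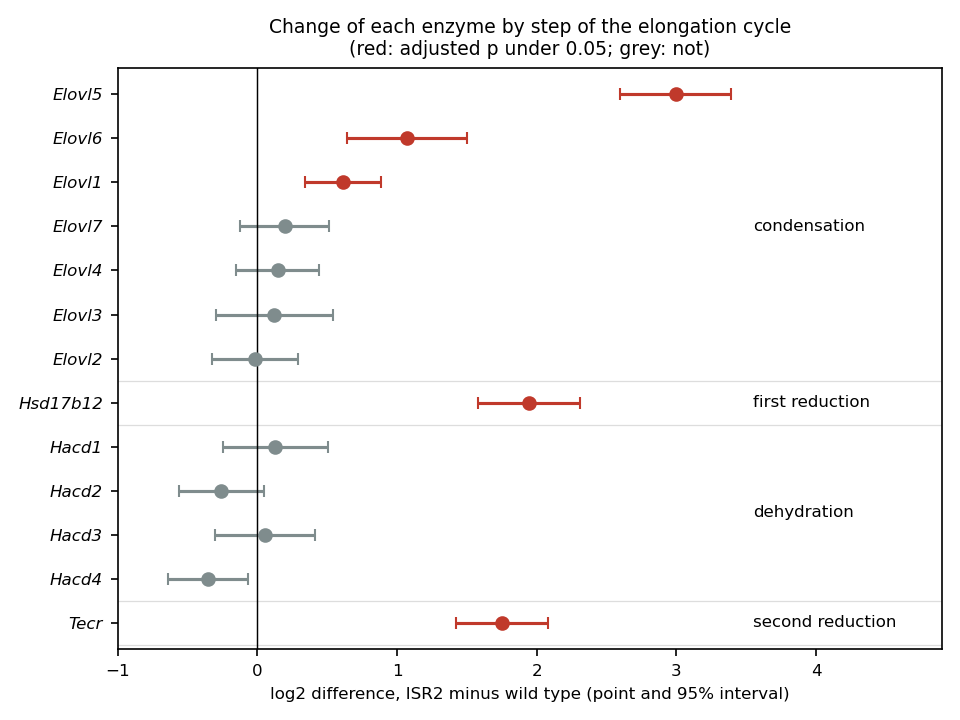
Log2 difference (ISR2 minus wild type) with its 95% interval for the 7 elongases, Hsd17b12, the 4 dehydratases and Tecr, ordered by step of the cycle; red marks an adjusted p under 0.05. The intervals of the condensing, first reducing and second reducing genes that rose lie above 0, and no dehydratase passed.

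The differences of the 9 genes were set beside each other pair by pair. For each of the 36 pairs of the 9 genes the difference between their values was taken on each array and compared between the groups with a two-sided exact permutation test, for which 3 arrays against 3 cannot give a p below 0.1. The smallest p adjusted over the pairs was 0.12 by the exact permutation test, so no pair could pass, and the values that follow are a description. Elovl5 rose by 1.92 more than Elovl6 on the log2 scale: Elovl5 minus Elovl6 was 0.38 to 0.67 on the ISR2 arrays and -1.90 to -1.02 on the wild type arrays. Elovl5 rose by 1.05 more than Hsd17b12, and Hsd17b12 by 0.19 more than Tecr. Hsd17b12 minus Tecr was -0.81 to -0.71 on the ISR2 arrays and -1.06 to -0.90 on the wild type arrays. The SEs of their own rises, 0.16 and 0.15, do not measure the spread of this difference within arrays.

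The wild type arrays were not alike in these genes. All 5 that rose were highest in wild type replicate 3, as were 7 of the 9 genes, while 34.4% of all genes and 50.8% of the genes that rose were highest in that array. All 5 also had a smaller SD on the ISR2 arrays than on the wild type arrays, which held for 42.5% of all genes and for 55.1% of the genes that rose. Of the 13 genes that rose in the malonyl-CoA and desaturase lists described below, 9 were highest in wild type replicate 3, 3 in replicate 1 and 1 in replicate 2. Without this array the rises of the 5 genes were between 0.66 for Elovl1 and 3.17 for Elovl5, larger than with all arrays, as must follow where the highest array of a group is left out. What sets this array apart was not tested.

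**Figure D3:**
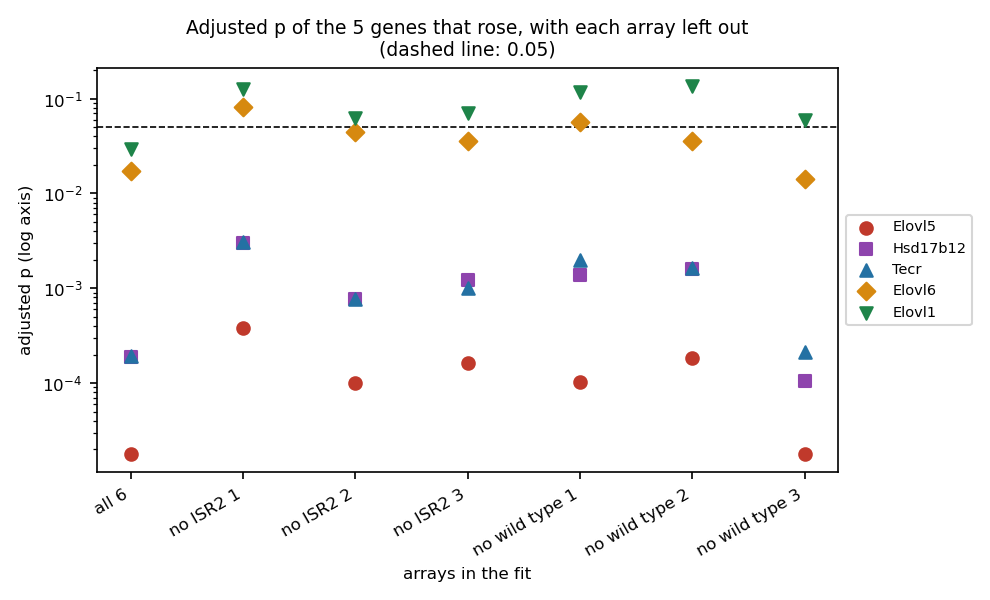
Adjusted p of the 5 genes that rose, on a log axis, in the fit of all 6 arrays and in the fits without each array; the dashed line is 0.05. Elovl5, Hsd17b12 and Tecr stay below the line in every fit shown, Elovl6 crosses it in 2 fits and Elovl1 in all 6 fits with an array left out.

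The steps on either side of elongation were compared through lists of related genes. Malonyl-CoA is the carbon donor of each turn. In the list of genes related to malonyl-CoA and fatty acid synthase 7 of 10 measured genes rose and 0 fell (median log2 difference 2.27). Mlycd, Mcat and Oxsm, which are not all genes of malonyl-CoA supply, did not pass (log2 differences 0.09, 0.14 and -0.16). Acaca, the acetyl-CoA carboxylase that makes malonyl-CoA, was at 10.12, 9.96 and 10.28 in ISR2 mucosa, against 6.97, 7.24 and 7.55 in wild type mucosa, a rise of 2.86 ± 0.17 on the log2 scale (SE; adjusted p = 1.86e-05 in limma). Acly, which supplies acetyl-CoA from citrate, rose by 3.38, Me1, which supplies NADPH, by 3.22, and Acss2, which makes acetyl-CoA from acetate, by 3.62 on the log2 scale.

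Desaturases take turns with elongases in making unsaturated chains. Of 11 measured genes of desaturation and its electron carriers 6 rose and 0 fell (median 1.02). Fads2, the enzyme that acts before ELOVL5 in polyunsaturated synthesis, was at 11.82, 11.86 and 12.04 in ISR2 mucosa, against 8.76, 9.29 and 9.94 in wild type mucosa, and rose by 2.58 ± 0.26 (log2 difference, SE; adjusted p = 0.000638 in limma). Fads1, which acts on the product of ELOVL5, was at 10.42, 10.48 and 10.78 in ISR2 mucosa, against 7.50, 8.35 and 8.51 in wild type mucosa, and rose by 2.44 ± 0.25 (SE; adjusted p = 0.000717). The groups of both genes were apart. In this branch Fads2, Elovl5 and Fads1 rose. Elovl2, a dim gene not shown to be above background in either group, did not pass. Fads3, a paralog of both Fads genes, rose by 1.90 ± 0.18 (SE; adjusted p = 0.000426). Scd1 and Scd2, which desaturate stearate and palmitate, rose by 6.31 and 5.61 on the log2 scale.

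Genes that use or break down long chains were counted in the same way, beside the 1.79% of all genes that rose. Of 13 measured genes of ceramide synthesis 1 rose and 0 fell (median 0.01). The one that rose was Cers5, a ceramide synthase that prefers palmitoyl-CoA, with a difference of 0.76 ± 0.16 (SE; adjusted p = 0.0336 in limma). Cers2, the ceramide synthase that takes the very long chains made by ELOVL1, was at 10.44 in ISR2 and 10.43 in wild type mucosa (means of log2 RMA values). Cers6 and Kdsr, a reductase of sphingoid base synthesis, differed by 0.52 and 0.45 without passing (adjusted p = 0.0953 and 0.0894), and Cers4 by 0.31.

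Of 8 measured genes of peroxisomal breakdown of very long chains 1 rose and 0 fell (median 0.17). It was Ehhadh, an enzyme of the peroxisomal spiral, at 1.21 ± 0.13 on the log2 scale (SE; adjusted p = 0.00122 in limma), while Decr2, Acaa1b and Abcd3 differed by 0.45, 0.33 and 0.31 without passing. Of 9 measured genes of acyl-CoA synthesis and binding 1 rose and 1 fell (median -0.13). Acsl4, an acyl-CoA synthetase that prefers arachidonic acid, rose by 3.48 ± 0.12 (SE; adjusted p = 1.14e-06), and Slc27a4, which couples fatty acid uptake to acyl-CoA synthesis, was the gene that fell, with a difference of -0.65 and an SE of 0.11 (adjusted p = 0.0165). Acbd5 and Acbd3, which encode acyl-CoA binding proteins, differed by 0.39 and -0.34 without passing.

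**Figure D4:**
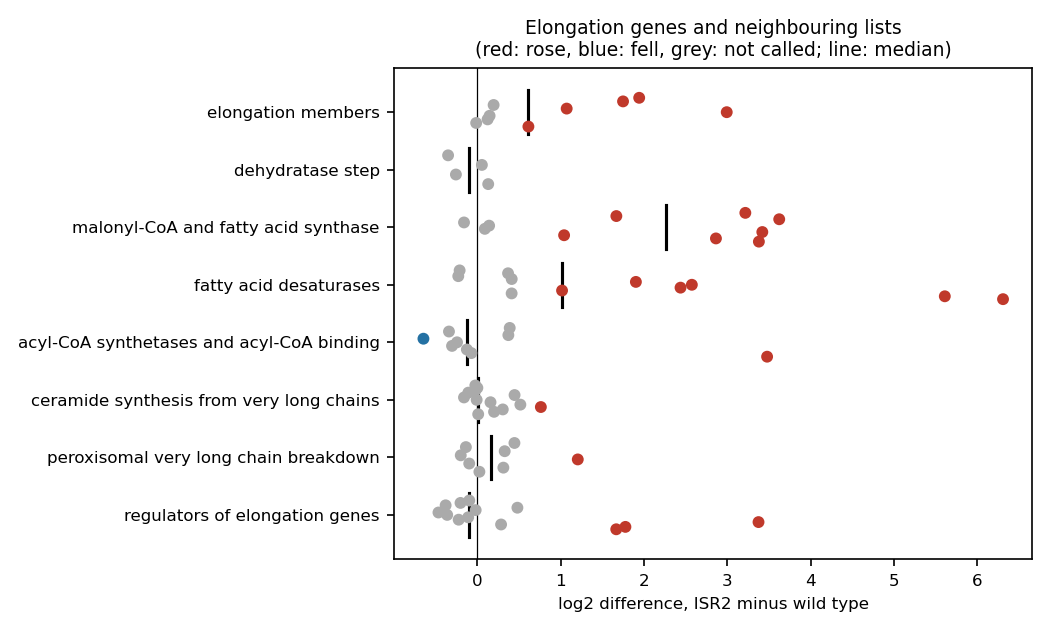
Log2 differences (ISR2 minus wild type) of the 9 elongation genes and of the genes measured in 7 neighbouring lists; each point is a gene, red for a rise, blue for a fall and grey for no call, and the black line is the median of the list. The medians of the elongation, malonyl-CoA and desaturase lists are 0.61, 2.27 and 1.02, and those of the other 5 lists lie between -0.13 and 0.17.

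Among 13 measured genes that encode regulators of these enzymes or of the SREBP proteins, 3 rose and 0 fell (median -0.10). Srebf2, which encodes SREBP2, rose by 1.78 ± 0.16 and Srebf1, which encodes SREBP1, by 1.67 ± 0.15 (log2 differences, SE; adjusted p = 0.000298 and 0.000395 in limma); how much of the Srebf2 signal the transgene gives is not known. Insig1, an SREBP target that retains the SREBP complex in the endoplasmic reticulum, rose by 3.38. Ppara, a nuclear receptor of fatty acid breakdown, differed by 0.48 (adjusted p = 0.111). Mlxipl, the carbohydrate-responsive factor known to act on lipogenic genes, and Nr1h3, an oxysterol receptor, differed by -0.11 and -0.47 (adjusted p = 0.8 and 0.211).

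The genes nearest to each elongation gene that rose were taken by Euclidean distance over the 6 arrays, after the wild type mean of each gene had been subtracted; this ranks 19938 genes on 6 values and mostly finds genes with a rise of the same size. Nearest to Elovl5 were Rdh11, a retinol dehydrogenase, Pank1, a pantothenate kinase of coenzyme A synthesis, and Acaca, at distances of 0.29, 0.32 and 0.36. Nearest to Hsd17b12 were Haus7, Mospd2 and Nfe2l1 (0.31, 0.31 and 0.33), and nearest to Tecr were Lrp8, Slc2a6 and Acpp (0.26, 0.27 and 0.28). Elovl6 was nearest to Tlcd3b, Mfsd2a and Ropn1l (0.29, 0.33 and 0.33). Mfsd2a is a transporter of lysophospholipids that carry docosahexaenoic acid. Elovl1 was nearest to Oasl2, Selenok and Lpin2 (0.13, 0.14 and 0.15), of which Oasl2 and Selenok did not pass (adjusted p = 0.0645 and 0.0532).

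The cellular makeup of the scrapings was read from marker lists. Of 9 enterocyte markers 1 fell, Alpi, and 0 rose. An unadjusted p under 0.05 in limma was found for 5 of the 9, beside 13.1% of all genes. All 5 were lower in ISR2 mucosa. The median log2 difference over the 9 markers was -0.31, and 3 of them were higher as measured. Their mean level was 12.07 to 12.26 on the ISR2 arrays and 12.36 to 12.42 on the wild type arrays (log2 RMA values of the 9 markers). All 4 measured T cell markers fell (mean level 7.01 to 7.46 on the ISR2 arrays and 8.11 to 8.59 on the wild type arrays). No gene passed in limma among 4 Paneth cell, 4 B and plasma cell, 4 goblet cell, 5 enteroendocrine, 4 tuft cell, 3 pancreatic acinar, 5 adipocyte, 3 hepatocyte or 5 smooth muscle and stroma markers; an unadjusted p under 0.05 was found for 3 of the Paneth cell, 1 of the B and plasma cell, 1 of the adipocyte and 0 of the other markers. All Paneth cell, B and plasma cell, goblet cell and pancreatic acinar markers were lower as measured, while 7465 of all 19938 genes were higher. The median log2 differences of the Paneth cell and the B and plasma cell markers were -0.61 and -0.35. The Paneth cell mean was 9.28 to 10.44 on the ISR2 arrays and 10.21 to 10.91 on the wild type arrays, and that of B and plasma cells was 6.19 to 6.85 in ISR2 and 6.64 to 7.19 in wild type mucosa. The goblet, enteroendocrine, tuft and acinar medians were -0.09, -0.13, -0.08 and -0.33. The adipocyte mean was 4.88 to 5.45 on the ISR2 arrays and 4.92 to 5.22 on the wild type arrays, so these groups overlapped. The smooth muscle and stroma mean ranged more widely, from 8.36 to 9.60 in ISR2 and 7.64 to 10.22 in wild type mucosa. It was highest in replicate 2 of each group, as were Acta2, Myh11 and Des. Acta2 was at 12.14 in wild type replicate 2, against 8.16 and 9.38 in wild type replicates 1 and 3, and at 11.38 in ISR2 replicate 2. Col1a1 and Col3a1 ranged less, from 7.63 to 8.40 and from 7.47 to 7.82 over the 6 arrays. The part of cell makeup in the rises was not tested. Wild type replicate 3 and ISR2 replicate 2 had deviations from their group means that ran most opposite (r = -0.54 across genes, which are not independent replicates). Without these 2 arrays 4 of the 9 genes rose, and Elovl1 did not pass (adjusted p = 0.0589 in limma). That fit is no check of cell makeup, since the arrays were picked from these data and wild type replicate 2 was kept.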

How the data were processed

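Biotin-labelled total RNA was hybridised to Affymetrix whole-transcript arrays, per the labels' protocols. The authors deposited log2 values from RMA (tool named in the submitters' processing notes); that they are log2 follows from their range of 1.44 to 14.83. RMA subtracts background, quantile-normalizes the arrays and combines probes into 1 value, so changes shared by most genes are removed and dim genes can be compressed. No source used here gives its version. Medians over all rows of the 6 arrays lay between 6.04 and 6.19.

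Of 35556 rows, 21789 had 1 gene symbol in the array annotation, 1621 several and 12146 none; Entrez IDs tied 21698 of them to GRCm38.p6, which changed 0 symbols. Of the 999 genes with several rows, the row with the highest mean was used, which left 19938 genes. No intensity filter was applied. Groups came from the titles. The test was lmFit with eBayes (limma 3.58.1, R 4.3.3), ISR2 minus wild type, without covariates, two-sided, with Benjamini-Hochberg adjustment over all genes and a threshold of 0.05. The fit was tested on simulated data. Figures were drawn with matplotlib 3.10.9.

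The members and lists were chosen with earlier results of these data known. Genes named were the 9 members, the dehydratases, up to 4 genes of each other pathway list with the smallest p, and the 3 genes nearest to each member that rose. Fads1, Cers2, Mlxipl, Nr1h3, Alpi, Mlycd, Mcat, Oxsm, Acta2, Myh11, Des, Col1a1 and Col3a1 were named after their values were seen. List genes without a row of their own were not analysed here. Alternatives were each array left out, the replicate number as a block, quantile normalization, median centring, array weights, a trend or the robust option in eBayes, dim genes left out, all rows tested, rows of a gene averaged, and other thresholds; a fit without 2 arrays was added after seeing the data.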

Additional observations from a re-analysis of the deposited data

How the results depend on the processing

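Elovl5, Hsd17b12 and Tecr rose in all 16 alternative fits, with log2 differences of 2.82 to 3.17, 1.82 to 2.11 and 1.67 to 1.88. The count of elongation genes that rose was 5 in the main result and 3 at an adjusted p of 0.01; with 1 array left out it was 3 to 4, being 3 without ISR2 replicate 1 or wild type replicate 1. With genes of low mean left out, the median over the members was 1.41, since Elovl2, Elovl3 and Elovl4 were removed. With each array left out it was 0.56 to 0.66. The difference of Elovl2 turned sign after median centring (0.031), and with 1 array left out it was -0.094 to 0.053; that of Elovl3 was -0.048 to 0.28 with 1 array left out. In the fit that lacked both ISR2 replicate 2 and wild type replicate 3, Elovl2 was at 0.087, Elovl3 at -0.085, 4 elongation genes rose, and 472 genes rose and 303 fell. Over all genes, 630 rose and 638 fell with array weights, against 356 and 246 in the main result. In that fit ISR2 replicate 1 had a weight of 4.06, and the other arrays had weights of 0.40 to 1.16. At thresholds of 0.01 and 0.10 the falls numbered 86 and 386. With 1 array left out, 236 to 353 rose and 85 to 236 fell. The cause of these changes in count was not tested.

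The labels do not say that equal replicate numbers mark a shared litter or day, and the deviations of same-numbered arrays correlated at -0.02, 0.32 and 0.54 for numbers 1, 2 and 3, so the numbers were not taken as pairs; ISR2 replicate 1 correlated best with wild type replicate 3. With the replicate number as a block 426 genes rose and 352 fell, 5 elongation genes rose and 0 fell, and the adjusted p of Elovl6 and Elovl1 was 0.0203 and 0.0377. The number of arrays limits the precision, and no background signal was available to show which dim genes were detected.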
